A study of Mus musculus with 110 samples.

Results

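The junctions described here lie between the main D gene segments of the mouse immunoglobulin heavy chain locus (Igh). They were chosen by position: chromosome 12, 114673190 to 114734443, more than 100 bp from each of 10 D positions that lie inside that window. The window runs from Ighd4-1, the D segment nearest JH, to Ighd1-1 on the VH side, and spans 61.3 kb. Of 3602400 junction reads in 98 libraries, 19293 were inter-D junctions by this rule, which is 0.536% of all reads and 0.605% of the 3187300 reads from the D array. The reads within 100 bp of the 10 D positions numbered 1093252. At the distance limit, 47 inter-D junctions lay in the first 20 bp inside the rule, and 121 junctions lay in the last 20 bp outside it.

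The study mapped V(D)J joining from a JH4 bait by LAM-HTGTS, which amplifies from a fixed bait end and sequences across the joint into whatever DNA it joined, the prey. It asked how cohesin and CTCF shape the choice of prey, with degron lines in which the plant hormone analogue IAA (auxin) triggers loss of a tagged protein. All lines were v-Abl transformed pro-B cells that carried an Emu-Bcl2 transgene and lacked RAG2. They received RAG2 by nucleofection and 3 uM STI-571, which stops the v-Abl kinase, for 4 days. Each line was left untreated (NT) or received 500 uM IAA, started 6 h earlier. The Rad21degron line had 3 replicates per treatment, the Rad21degron line with IGCR1 deleted had 4, and the CTCFdegron line had 6. The controls were the parental wild-type line, the line with an Ostir1 knock in only, and the line with CTCF-mAID-GFP tagging only, each with 4 replicates per treatment. The bone marrow group held 6 replicates of B220+CD43+IgM- cells sorted from a 129SV mouse, with RAG of their own and no IAA. The labels of 4 libraries titled as IAA name no IAA in their treatment field, and their titles were followed. They are the b library of IGCR1-deleted replicate 4, the a library of CTCFdegron replicate 4 and both libraries of CTCFdegron replicate 5. Each share is 1 value per replicate, the mean of its a and b libraries where both existed. The labels do not say that replicates came from separate cultures or animals, so p-values measure the spread between these samples, which may be technical. The files hold no expression values, so the labelled cell types were not checked against markers.

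D segments are short coding stretches with a recombination signal sequence (RSS) on each side. An RSS is a heptamer, CACAGTG, a spacer of 12 or 23 bases, and a nonamer, ACAAAAACC. The RAG endonuclease cuts between the coding end and the heptamer, whose CAC is its most conserved part. A JH segment has an RSS with the 23-base spacer, and a D segment has 12-base spacers, the pair that RAG joins. Pseudo-D segments carry a degenerate RSS, and a cryptic RSS is a chance match elsewhere in the genome. RAG can scan along chromatin from JH, and in that scan cryptic sites facing JH can be cut. Joints in the deletional orientation, which are read here as plus prey, delete the DNA between prey and JH. Joints in the other orientation are read as minus prey and invert it.

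The sequences below carry the main difference among these sites, and were read from the deposited reads. Each runs 5′ to 3′ from 20 coding-side bases into the signal, in the coordinates of the authors' hybrid build, and lies on the minus strand unless stated. Capitals mark the heptamer position, and the nonamer position where at least 6 of its 9 bases matched. First come the main D segment at 114695747 and Ighd1-1, whose heptamer reads CACAGTG. The 3 pseudo-D sites that follow share nearly all of their sequence with each other. The next 3 are sites with no annotated D, and the last is the minus-prey site, read on the plus strand.
D at chr12:114695747: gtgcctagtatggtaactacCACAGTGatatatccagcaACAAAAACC
Ighd1-1 at chr12:114734544: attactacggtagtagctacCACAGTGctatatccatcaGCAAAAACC
pseudo-D site 114732517, chr12:114732487-114732534: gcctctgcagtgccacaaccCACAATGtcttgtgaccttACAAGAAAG
pseudo-D site 114708573, chr12:114708545-114708592: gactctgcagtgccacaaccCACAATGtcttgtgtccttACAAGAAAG
pseudo-D site 114698902, chr12:114698874-114698921: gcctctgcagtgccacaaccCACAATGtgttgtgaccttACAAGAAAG
site 114733437, chr12:114733397-114733456: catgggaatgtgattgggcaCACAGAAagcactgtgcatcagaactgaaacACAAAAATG
site 114685205, chr12:114685177-114685224: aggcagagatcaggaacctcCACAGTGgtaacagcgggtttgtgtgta
site 114685817, chr12:114685789-114685836: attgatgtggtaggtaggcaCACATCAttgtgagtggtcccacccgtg
minus-prey site 114685804, chr12:114685785-114685844, plus strand: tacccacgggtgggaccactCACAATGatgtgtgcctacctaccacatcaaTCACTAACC

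The inter-D junctions were not spread along the array. They fell on 1746 positions, and 104 sites, each a peak of up to 20 bp on either side, held 18169 of the 19293 junctions, or 94.2%. The 6 largest held 47.6% and the 20 largest 75.1%. The plus orientation held 18905 junctions and the minus orientation 388, which is 2.01%. At least 1 inter-D junction was present in 95 of the 98 libraries. The last interval of the array, 6.767 kb between the D at 114727777 and Ighd1-1, held 9301 junctions, or 48.2%, at 1374 per kb. The first and longest interval, 14.523 kb beside Ighd4-1, held 1894, or 9.82%, at 130 per kb, and 273 of the 388 minus junctions. The other 9 intervals held between 55.1 and 324 junctions per kb.

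**Figure D1:**
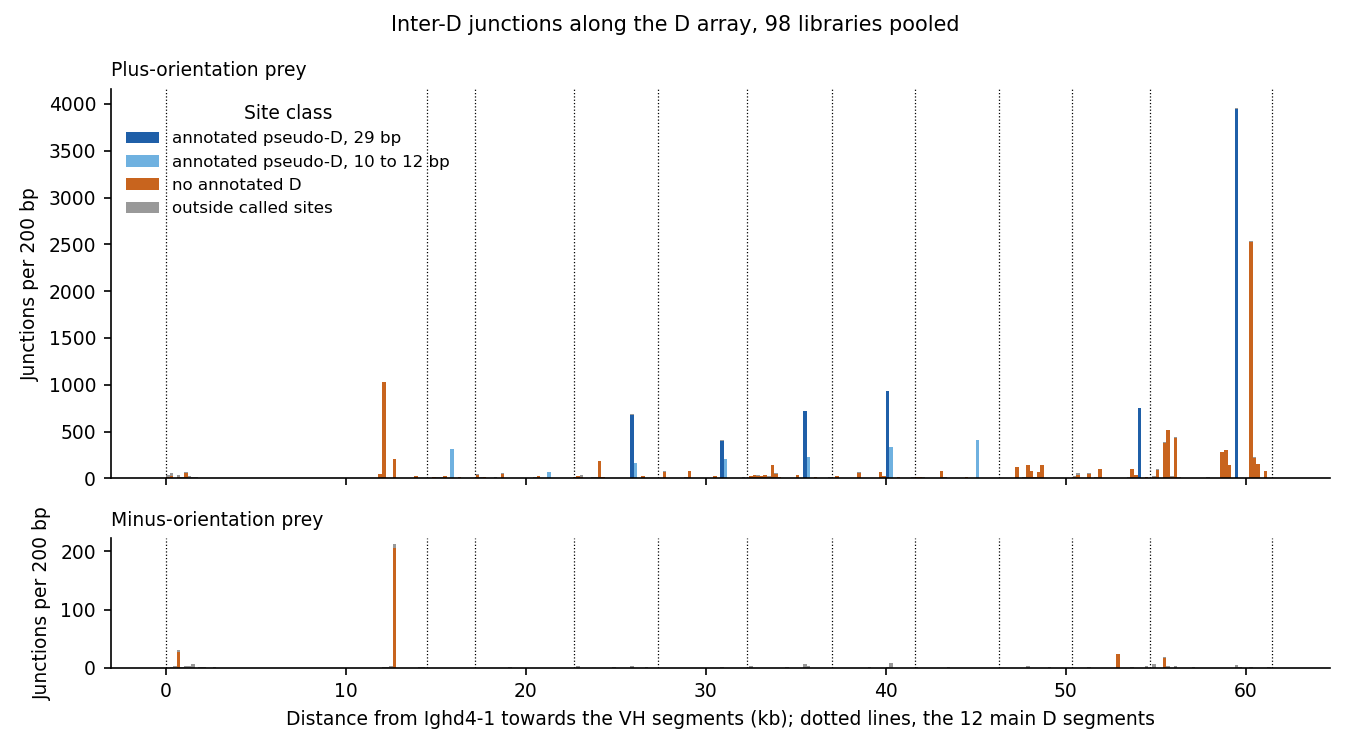
Inter-D junction reads per 200 bp by distance from Ighd4-1 in kb, pooled over the 98 libraries, with plus prey in the upper panel and minus prey in the lower; colours give the class of the site and dotted lines the 12 main D segments. Most reads stand in narrow peaks, the tallest in the interval before Ighd1-1, which holds 48.2% of them, and the main minus peak has 205 reads.

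Each site was named through a match of its flanking sequence to the mm9 reference annotation, which uses other coordinates. Pseudo-D segments annotated at 29 bp accounted for 6 sites and 7417 junctions, or 38.4% of the inter-D total. These were the sites at 114732517 (matching Ighd6-1, mm9 chr12:114718354-114718382), at 114727252 (Ighd6-2, mm9 chr12:114713086-114713114), and at 114713225, 114708573, 114703894 and 114698902, matched to Ighd5-7 (mm9 chr12:114702735-114702763). These last 4 sites share the same closest annotated segment, so that name gives the nearest match and is not settled for any of them. For 114703894 and 114698902 another place in mm9 matched as well. Pseudo-D segments annotated at 10 to 12 bp accounted for 7 sites and 1731 junctions, or 8.97%. The other 91 sites matched no annotated D and held 9021 junctions, or 46.8%. The pseudo-D sites repeat with the array: 4 of the 6 sites of 29 bp lay 1500 to 1505 bp on the JH side of the next main D. The 30 bases on the coding side of the heptamer were identical at 27 to 30 positions in the 15 pairs of 29-bp pseudo-D sites. For the 10 to 12 bp pseudo-D sites it was 29 to 30 in the 6 pairs that could be read. Reads from such near-identical copies depend on how the authors' alignment placed or dropped them. That bears on the split among copies, and its effect on their sum was not tested.

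Position relative to a CAC set inter-D junctions apart from the sequence around them. Among plus junction reads whose flank could be read, 82.8% lay 0 to 5 bp from a CAC that faced the joint as an RSS heptamer would, and 29.9% lay directly at it. Over all readable positions of the same window, a CAC lay within that distance at 14.6%, and directly at 2.86%. For minus reads, it was 68.1% against 9.25%. Counting each distinct junction position once, the shares within 5 bp were 47.6% for plus and 37.2% for minus, so the most used positions lay at a CAC more often than the rest. This is a description of letters in a window, and 63.2% of the window could be read from the deposited reads. The match to the rest of the signal split the sites. Spacers of 11 to 13 bases were counted here as 12, and those of 22 to 24 as 23. The 4 readable pseudo-D sites of 29 bp each carried a heptamer with at least 6 of 7 bases in common with CACAGTG, and a nonamer with at least 6 of 9 bases at a 12-base spacer. All of the 4 readable 10 to 12 bp pseudo-D sites had the heptamer match and none had the nonamer match. Among 57 readable sites with no annotated D, 26.3% had such a heptamer, 12.3% such a nonamer at a 12-base spacer, and 15.8% at a 23-base spacer. Across all 1448 readable CAC of the window on both strands, these were 12.6%, 11.3% and 8.43%. Of the 12 main D segments, 91.7% had the heptamer match and 100% the 12-base nonamer match.

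**Figure D2:**
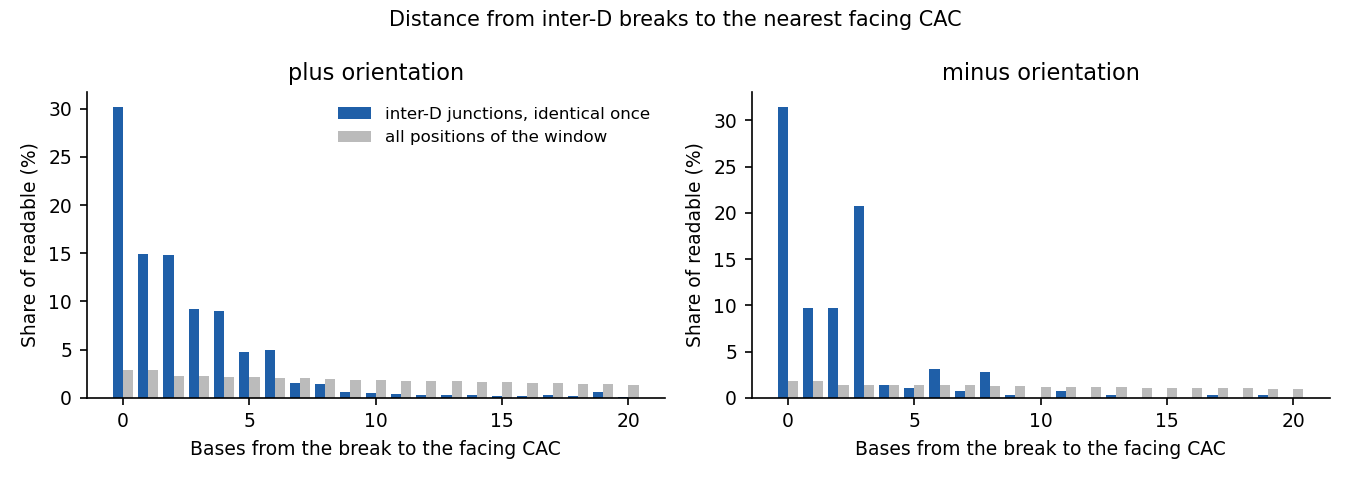
Share of readable inter-D junctions, identical ones counted once (blue), and of all readable positions of the window (grey) by the number of bases to the nearest facing CAC, for plus prey at left and minus prey at right. Within 5 bases lie 83.0% of plus and 74.0% of minus junctions counted this way, against 14.6% and 9.25% of positions.

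The 6 sites with the highest mean share over the groups were 114732517, 114733437, 114713225, 114708573, 114685205 and 114674094. The pseudo-D site 114732517 held 3945 junctions, or 20.4% of the inter-D total, from 88 libraries and 12 groups. Its CACAATG heptamer differs from the consensus at 1 base, and its nonamer matches at 6 of 9. The site 114733437, in none of the annotated D segments and 1107 bp on the JH side of Ighd1-1, held 2528 junctions, or 13.1%, from 83 libraries. Its heptamer is CACAGAA, and at a 24-base spacer stands ACAAAAATG, with 7 of 9 nonamer bases. The site 114685205 in the first interval, with 1011 junctions or 5.24%, has a full CACAGTG and no 12-base nonamer match at 6 bases or more. The site 114674094, 1.005 kb from Ighd4-1, is of another kind. It held 62 junctions in 6 libraries with no CAC within 5 bp, and ranked among the 6 through 1 replicate number of the IGCR1-deleted line, at 1.05% of all junctions with IAA and 0.207% untreated. The other 3 replicates of those groups had none.

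The DNA between bait and prey also divided the sites. Identical joints were counted once, which leaves 15982. The search needed 8 bases shared with a D. A shorter insert could not match, so a joint without a match may still hold D bases. At sites with no annotated D, 3662 of 7525 joints (48.7%) held at least 8 bases of a main D coding sequence, in deletional orientation, between the JH4 bait and the prey. At the 29-bp pseudo-D sites the share was 2.60% (158 of 6087 joints), at the 10 to 12 bp pseudo-D sites 6.50%, and at the main D segments themselves 0.733%. The same search with the D sequence inverted gave 0.465% at the sites with no annotated D, and with its letters reversed 0.850%. With a 12-base match the shares were 19.9% at sites with no annotated D, 1.31% at 29-bp pseudo-D sites and 0.251% at main D segments, against 0.159% for inverted matches. Ighd4-1, with 11 bases, cannot match at 12. These joints therefore read as JH4, a D, then the inter-D prey.

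Long inserts showed the same division. Joints with more than 15 bases between bait and prey made up 28.6% at sites with no annotated D, 1.79% at 29-bp pseudo-D sites, 4.15% at 10 to 12 bp pseudo-D sites and 0.434% at main D segments. Of the long inserts at sites with no annotated D, 91.2% held a D match. No insert was longer than 30 bases in any set, so longer inserts, if any, were not in the files used. For orientation, 2 of the D coding sequences searched are printed here as they appear in the reads, in the sense of the plus strand.
D at 114695747: gtagttaccatactagg
Ighd4-1: gtcccagttag
Where the inserted bases identified 1 D position, its place relative to the prey could be read. Ighd4-1 has every inter-D site on its VH side by position alone. Leaving Ighd4-1 out, the prey lay on the VH side of the inserted D in 1774 joints of 1797, or 98.7%, and on the JH side in 23. Of all inter-D joints, 67.3% lay on the VH side of the same D positions, averaged over these inserts. That value also counts joints at pseudo-D sites, which seldom held D sequence. No such value was taken for the sites with no annotated D alone, so the size of the contrast is not settled. Ighd4-1 was the insert in 597 joints, the D at 114727777 (closest to Ighd2-3 of mm9) in 543, the D at 114705399 in 534 and the D at 114695747 in 287. In 1644 joints several D segments were alike over the insert and could not be told apart. Ighd1-1, which lies on the VH side of every inter-D site, was the insert in 11.

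Single sites kept to this division with few exceptions among the largest. At site 114733437, 59.4% of 2148 joints carried D sequence, and at 114728805, which lies 5739 bp before Ighd1-1, 65.1% of 401 did. At 114729249, 114728625 and 114731886 the shares were 52.3%, 54.5% and 56.5%. The site 114685205, with its full heptamer on the JH side of most of the array, had 30.4% of 881. Among pseudo-D sites, 114732517 had 4.42% of 3210, and 114713225, 114708573, 114727252, 114698902 and 114703894 had between 0.178% and 1.04%. The 10 to 12 bp pseudo-D site at 114718120 had 17.8% of 343. The minus joints at sites with no annotated D matched a deletional D in 4.21% and an inverted one in 7.94% (17 of 214).

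**Figure D3:**
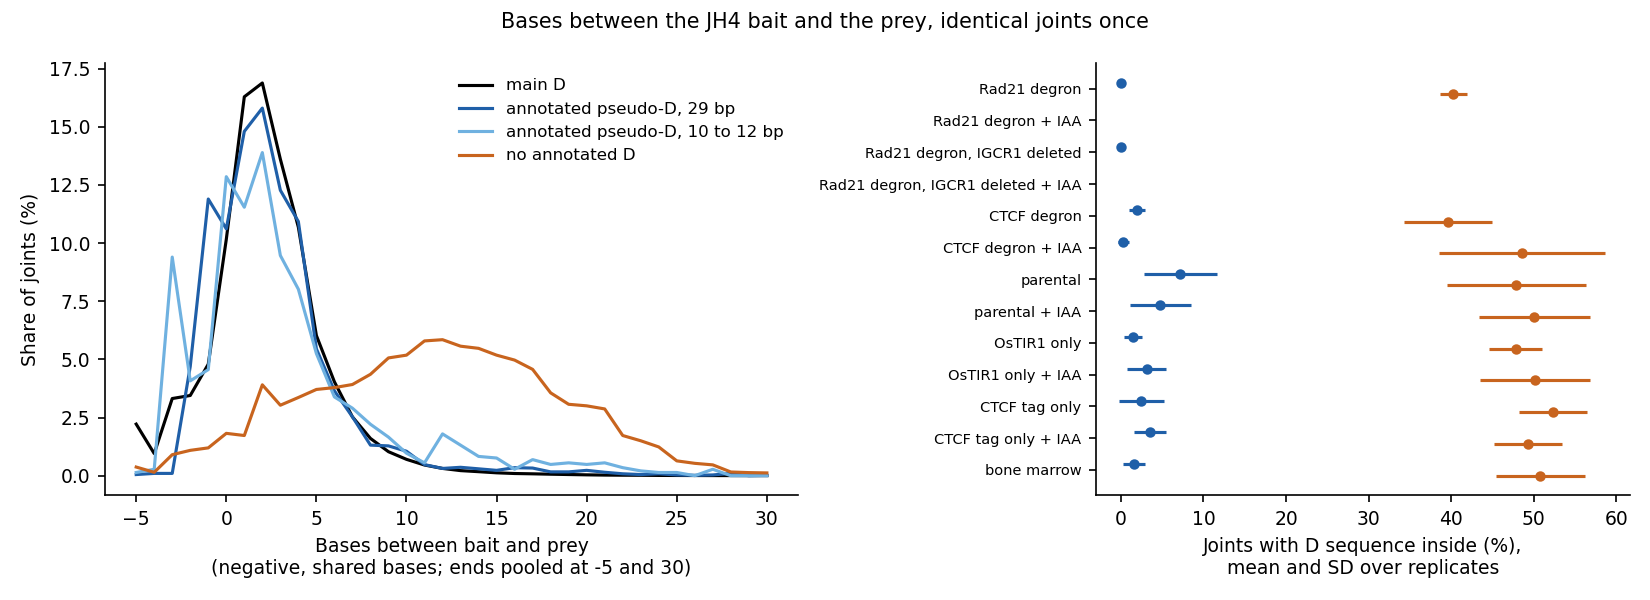
Left, share of joints (identical ones once) by the number of bases between bait and prey, for 4 classes of prey site, with negative values for bases shared by both ends. Right, percent of joints with D sequence inside by group, as mean and SD over replicates, at 29-bp pseudo-D sites (blue) and at sites with no annotated D (orange). The blue and orange means do not meet in any group shown, with orange at 50.8% in bone marrow and 47.9% in the untreated parental line.

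The division was present in bone marrow and in the lines, at differing depth. At sites with no annotated D, the mean share of joints with D sequence was 50.8% ± 5.35 (SD, n = 6) in bone marrow, 47.9% ± 8.36 (SD, n = 4) in the untreated parental line, 39.6% ± 5.35 (SD, n = 6) in the untreated CTCFdegron line and 48.6% ± 10.0 (SD, n = 6) with IAA. In untreated Rad21degron cells it was 40.3% ± 1.58 (SD, n = 3). The untreated IGCR1-deleted line had 56 such joints over its replicates, of which 8 (14.3%) held D sequence. Replicate 1 gave 42 of the 56, and 28 of its junction reads fell on site 114674094, which had no CAC within 5 bp. With IAA, the Rad21degron line had 11 inter-D junctions in all, and the IGCR1-deleted line 40. No joint with D sequence was found among them. In the IGCR1-deleted line with IAA, replicate 1 had 1.05% of junctions at sites with no annotated D, the share of 114674094 alone. The other replicates had 0% at such sites. As a share of all junctions, inter-D joints with a D match averaged 0.288% ± 0.0496 in bone marrow (n = 6) and 0.115% ± 0.0191 in the untreated parental line (n = 4). Inter-D joints without such a match, which may still hold shorter pieces of D, averaged 1.10% ± 0.198 and 0.286% ± 0.0406.

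The minus junctions gathered on 1 short element. The minus-prey site 114685804 held 205 junctions, 52.8% of all 388, and the plus-prey site 114685817 held 203. Their joints flank the same 12 bases, chr12:114685805-114685816, which read CACAATGATGTG on the plus strand and CACATCATTGTG on the minus strand. Each strand thus starts with a CAC that faces its own joint. The element lies 1795 bp on the JH side of the D at 114687612 in no annotated D, and the 2 sites were found in 60 and 62 libraries. At 114685817, 33.1% of 175 joints held a deletional D sequence. At 114685804 it was 4.89% of 184, with 7.07% inverted.

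The first comparison across samples is the level of inter-D joining in primary bone marrow pro-B cells against the untreated parental line. The inter-D share of all junctions was 1.34%, 1.20%, 1.20%, 1.36%, 1.85% and 1.38% in the 6 bone marrow replicates, and 0.347%, 0.396%, 0.419% and 0.445% in the 4 parental ones. Every bone marrow replicate was above every parental replicate. The means were 1.39% ± 0.241 and 0.402% ± 0.0416, a ratio of 3.45 (exact permutation test, two-sided as throughout, p = 0.00476, which is as low as 6 against 4 can go; adjusted by Benjamini-Hochberg over 32 share tests, 0.0762). Of the D array alone, the inter-D share was 2.08% ± 0.262 against 0.433% ± 0.0487, a ratio of 4.79, with the same exact p. The 2 groups differ in cells, RAG source and sequencing run, which cannot be told apart, since no run held both. Bone marrow values were 1.24% and 1.53% on average in its own 2 runs. In 3 of the 6 bone marrow replicates the authors' lists keep reads marked as duplicates, which hold 44.3% of the group's inter-D junctions. Without those reads the difference in inter-D share was 1.49 points, against 0.986 with them, and that of the D array 3.80 points, against 1.64 (exact permutation p = 0.00476 and 0.019).

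Pseudo-D sites made up a larger part of the inter-D junctions in bone marrow. The 13 pseudo-D sites held 54.4% ± 3.36 of inter-D junctions in bone marrow and 44.1% ± 4.87 in the parental line. The replicates ran from 51.1% to 59.97% (median 53.5%) and, in the parental line, were 41.1%, 50.8%, 44.5% and 39.9%, with no overlap (exact permutation p = 0.00476, again as low as it can go). Adjusted by Benjamini-Hochberg over 40 tests it was 0.0635, and the share of pseudo-D sites is a measure added after the data were seen. Among inter-D sites with enough junctions to test by limma, 6 of 12 were higher in bone marrow and none was lower. Of all 173 sites tested over the D and VH region, 93.1% changed, 83.8% were higher and 9.25% lower, with a median log2 difference of 5.01 over all sites and 1.54 over the inter-D sites. The inter-D count is therefore below that of the region.

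The pseudo-D site 114732517 lay at 0.310% to 0.475% of all junctions in bone marrow (median 0.362%) and at 0.0283%, 0.0798%, 0.101% and 0.0915% in the parental line. Bone marrow was higher without overlap, by 2.02 (SE 0.28) on the log2 scale (limma adjusted p = 1.8e-09). Site 114727252 reached 0.0853% ± 0.0277 against 0.00975% ± 0.00713, with a log2 difference of 2.92 (SE 0.55, limma adjusted p = 2.2e-06). Site 114713225 reached 0.0701% ± 0.0304 against 0.0141% ± 0.00567, with a log2 difference of 2.58 (SE 0.52, limma adjusted p = 6.3e-06). These are 3 of the 29-bp pseudo-D sites, and for each the replicates of the groups did not overlap, as held for 83.8% of all sites. The other sites past the threshold were the pseudo-D sites 114703894, 114698902 and 114718120, whose replicates overlapped. The cryptic site 114733437, with no annotated D, was at 0.0751% ± 0.0232 against 0.0868% ± 0.0462, and its log2 difference of -0.67 (SE 0.35) did not pass (limma adjusted p = 0.0623). The nearby Ighd1-1 itself was lower by 2.06 on the log2 scale. Under median-of-ratios scaling, which takes the median over all sites from 5.01 to 3.45, 3 inter-D sites passed in place of 6. The share of all sites that passed under that scaling was not tallied, so this count cannot be set against it.

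**Figure D4:**
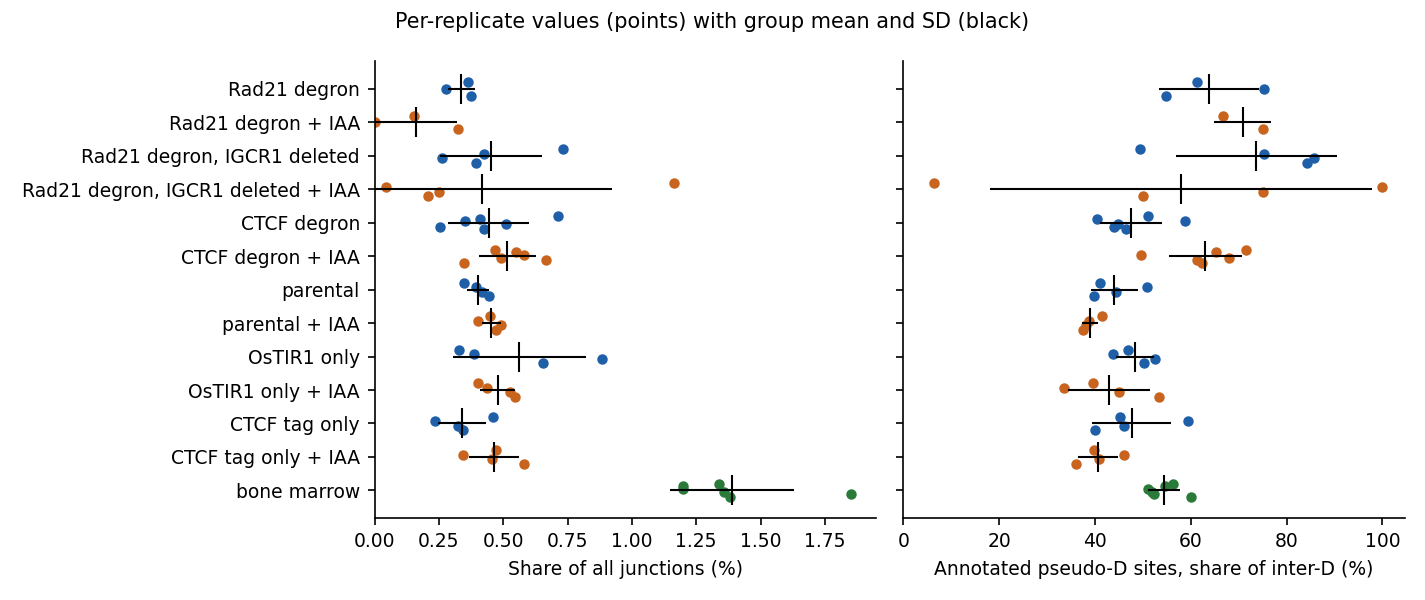
Inter-D junctions in percent of all junctions (left) and the annotated pseudo-D sites in percent of inter-D junctions (right) by group; points are replicates, and black marks are the mean and SD. Bone marrow stands at 1.20% to 1.85% of all junctions, above the 0.347% to 0.445% of the untreated parental line.

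The CTCFdegron line asks what loss of CTCF, which binds the anchors that stop cohesin, did to these sites. The inter-D share of all junctions was 0.467%, 0.548%, 0.579%, 0.491%, 0.668% and 0.347% with IAA, against 0.714%, 0.411%, 0.350%, 0.510%, 0.253% and 0.426% untreated. The ranges overlapped widely, and the means of 0.516% ± 0.109 and 0.444% ± 0.157 did not differ beyond their spread (exact permutation p = 0.377). Of the D array, the share was 0.737% ± 0.156 with IAA and 0.477% ± 0.179 untreated, a ratio of 1.54, with overlap (exact permutation p = 0.0281, Benjamini-Hochberg 0.229). Without IAA replicate 5, untreated replicate 3 or untreated replicate 5 that exact p rose to 0.0541, 0.0519 and 0.0563. IAA replicate 5 is the replicate whose libraries both lack IAA in their treatment field. All 12 replicates were sequenced in 1 run.

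Within the inter-D junctions, the pseudo-D sites made up a larger share with IAA in the CTCFdegron line. It was 71.4%, 65.4%, 49.5%, 68.1%, 61.3% and 62.4% with IAA and 51.0%, 40.4%, 58.8%, 44.8%, 43.9% and 46.5% untreated. IAA replicate 3 lay among the untreated values and untreated replicate 3 within the IAA range, and the other 10 did not overlap. The means were 63.0% ± 7.59 and 47.6% ± 6.52 (exact permutation p = 0.00649, Benjamini-Hochberg 0.0649 over 40 tests), a difference of 15.4 percentage points. In the control lines IAA went with lower values. The difference was -6.99 with the CTCF tag only, -5.10 in the parental line and -5.47 with OsTIR1 only, none of which passed by itself. The CTCFdegron difference exceeded these by 22.4, 20.5 and 20.9 points. Permuting treatment within each line gave p = 0.00189, 0.000959 and 0.00473, and Benjamini-Hochberg values of 0.0189, 0.0189 and 0.0315 over 20 such tests. The labels of the control line were also swapped only within its replicate numbers. These were treated as pairs in the 3 control lines. In the parental line the pairing was weak, and 0 of 4 IAA replicates correlated best with their own number untreated. By exact permutation p was then 0.000812, 0.00122 and 0.00189 (Benjamini-Hochberg 0.00913, 0.00913 and 0.00947 over 15 tests), an alternative chosen after seeing the data.

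Of 5 inter-D sites tested by limma, 1 was higher and 1 lower in the CTCFdegron line with IAA, both without overlap. Over all 83 sites of the region, 88% changed, with 78.3% higher and 9.64% lower, and 67.5% did not overlap. The cryptic site 114733437 was at 0.0232%, 0.0181%, 0.0172%, 0.0116%, 0.0198% and 0.00899% with IAA and at 0.105%, 0.0716%, 0.0328%, 0.0508%, 0.0458% and 0.0558% untreated. All 6 IAA values were below all 6 untreated values, and the site fell by 1.70 on the log2 scale (SE 0.45, limma adjusted p = 0.00049). The pseudo-D site 114713225 was at 0.0508%, 0.0672%, 0.0693%, 0.0463%, 0.0570% and 0.0297% with IAA and at 0.0149%, 0.0103%, 0.0255%, 0.0209%, 0.0074% and 0.0286% untreated. It was higher in every IAA replicate, by 1.61 on the log2 scale (SE 0.43, limma adjusted p = 0.00061), though under median-of-ratios scaling its log2 difference is -0.29. The median over the 5 inter-D sites was 0.17 and over all sites 2.40, and that scaling takes the latter to 0.48. Sites 114732517, 114708573 and 114685205 did not pass, with log2 differences of 0.10, 0.78 and 0.17, each of which turns negative under that scaling. Ighd1-1, the neighbour of 114733437, fell by 1.18, while 7 of the 12 main D segments were higher.

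**Figure D5:**
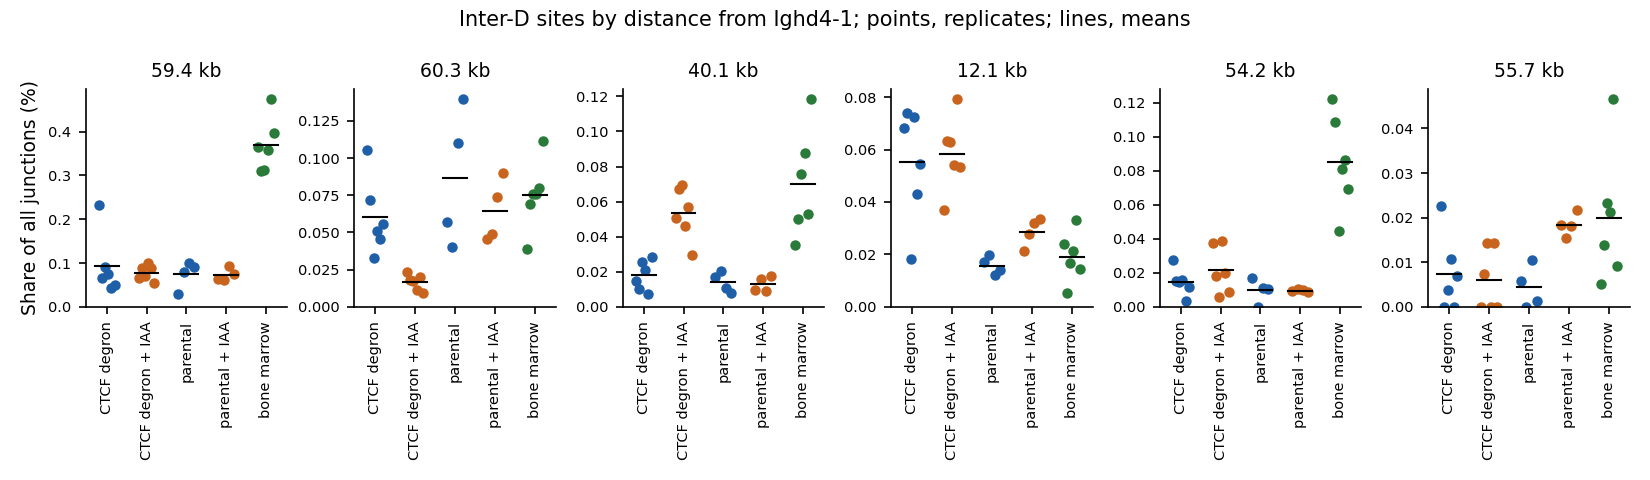
Percent of all junctions at 6 inter-D sites in 5 groups, with replicates as points and means as lines; each panel is named by its distance from Ighd4-1 and has its own axis from 0. They are 114732517 (59.4 kb), 114733437 (60.3 kb), 114713225 (40.1 kb), 114685205 (12.1 kb), 114727252 (54.2 kb) and 114728805 (55.7 kb). Site 114733437 lies at 0.00899% to 0.0232% with IAA in the CTCFdegron line, below its 0.0328% to 0.105% untreated.

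The 3 control lines ask what IAA, OsTIR1 or the tag did alone. In the parental line the inter-D share was 0.449%, 0.403%, 0.490% and 0.473% with IAA, with a mean of 0.454% ± 0.0376 against 0.402% ± 0.0416 untreated. The groups overlapped (exact permutation p = 0.114). The share of inter-D junctions on the JH side of the window's midpoint was 27.3%, 26.1%, 20.5% and 22.7% with IAA and 18.5%, 18.7%, 16.8% and 15.0% untreated. It was higher in all IAA replicates, at 24.2% ± 3.15 against 17.2% ± 1.74 (exact permutation p = 0.0286, the smallest that 4 against 4 allows; Benjamini-Hochberg 0.229; paired by replicate number, exact p = 0.125, the smallest for 4 pairs). Replicates 1 and 2 were sequenced in one run with IAA and in another untreated, where run and IAA cannot be told apart. Replicates 3 and 4 of both groups shared a run, and there too both IAA values, 20.5% and 22.7%, lay above both untreated ones, 16.8% and 15.0%. The inter-D share was higher with IAA by 0.0495 points in that run. In limma, 2 of 13 inter-D sites were higher in the parental line with IAA, both without overlap. Over all 71 sites, 22.5% changed, 21.1% were higher, 1.41% were lower and 19.7% did not overlap. They were 114728805, at 0.0184%, 0.0155%, 0.0181% and 0.0216% against 0.00571%, 0%, 0.0104% and 0.00133% (log2 2.09, SE 0.54, limma adjusted p = 0.0169), and 114685205, at 0.0214%, 0.0277%, 0.0320% and 0.0335% against 0.0171%, 0.0197%, 0.0121% and 0.0142% (log2 1.001, SE 0.30, limma adjusted p = 0.0309). Both are sites with no annotated D. Counting identical junctions once left neither past the threshold. The replicate numbers paired the samples only weakly in this line. With them as a block, 114733437 also passed, at -0.56 (limma adjusted p = 0.0154). How many of all sites passed in that fit was not tallied.

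In the OsTIR1-only line the inter-D share was 0.403%, 0.437%, 0.528% and 0.545% with IAA and 0.327%, 0.388%, 0.884% and 0.653% untreated, with overlap (exact permutation p = 0.6). It was higher with IAA by 0.0625 points in one sequencing run and lower with IAA, at -0.233 points, in the other. None of the 8 sites tested passed in limma, at an adjusted or an unadjusted p under 0.05, and 0% of all 51 sites did. The same replicate numbers deviated together in this line. With them as a block, 114732517 fell by 0.94 (limma adjusted p = 0.0039) and 114733437 fell by 0.67 (limma adjusted p = 0.0469). How many of all sites passed with the block was not tallied.

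In the CTCF-tag-only line the share was 0.473%, 0.344%, 0.458% and 0.580% with IAA and 0.458%, 0.235%, 0.323% and 0.342% untreated, again with overlap (exact permutation p = 0.0857). It was higher with IAA in 4 of 4 pairs, where the paired exact p can go no lower than 0.125. None of 13 sites passed in limma, at an adjusted or an unadjusted p under 0.05, and 0% of all 109 sites did. With the block, 114685205 was higher by 0.73 (limma adjusted p = 0.0199) and 114728625 by 1.41 (limma adjusted p = 0.0030). Here too, how many of all sites passed with the block was not tallied. The untreated parental replicates served both here and for bone marrow, and the untreated Rad21degron replicates serve in 2 of the comparisons that follow.

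In the lines with a degron on Rad21, a cohesin subunit, IAA groups held few inter-D junctions to compare. In the Rad21degron line, 394 of 113444 junctions were inter-D untreated and 11 of 5566 with IAA. The shares were 0.361%, 0.276% and 0.375% untreated and 0.154%, 0% and 0.324% with IAA. The value of 0 came from 1 replicate with no inter-D junction, and the highest IAA value lay within the untreated range. The means of 0.337% ± 0.0534 and 0.159% ± 0.162 did not differ by the exact permutation test (p = 0.2, where 3 against 3 allows 0.1 at the least). Each replicate number was sequenced in its own run, and within the runs the IAA value differed by -0.207, -0.276 and -0.0508 points, lower in 3 of 3 (paired exact p = 0.25, the smallest for 3 pairs). Ighd4-1, the D nearest JH, took 14.5% ± 2.04 of junctions untreated and 56.4% ± 5.98 with IAA (n = 3 each).

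With IGCR1, the control region between D and VH segments, deleted, 235 of 48627 junctions were inter-D untreated and 40 of 8434 with IAA. The untreated shares were 0.733%, 0.424%, 0.263% and 0.394%, and those with IAA 1.16%, 0.0446%, 0.249% and 0.209%. The highest IAA value comes from replicate 1, in which 93.5% of the inter-D junctions lay on the JH side of the midpoint and 1.05% of all junctions fell on the site 114674094. The exact permutation p was 0.914 with it, and the difference ran from -0.286 to 0.0864 points over the 8 ways of leaving out 1 replicate. Without IGCR1 and IAA, the inter-D share of the D array was 1.66%, 0.926%, 0.570% and 0.785%, against 0.376%, 0.288% and 0.391% with IGCR1 present. The groups did not overlap, and the means of 0.986% ± 0.474 and 0.352% ± 0.0559 gave an exact permutation p of 0.0571, where 4 against 3 allows 0.0286. As a share of all junctions the values overlapped (exact permutation p = 0.4). The cryptic site 114733437 beside Ighd1-1 was at 0.0216%, 0.00404% and 0.0191% with IGCR1 present, from 19 junctions, and had no junction in any of the 4 untreated replicates without IGCR1. Pooled over these 4, 0 of 48627 junctions allows a share of up to 0.00617%. In the single replicates 0 allows up to 0.0222%, 0.0196%, 0.0563% and 0.0207%, each above 0.0191%. The pseudo-D site 114708573 was at 0.0338% ± 0.00444 (SD, n = 3) with IGCR1 present and at 0.0578% ± 0.0213 (SD, n = 4) without it. These sites were below the minimum for limma over all replicates. For the line without IGCR1 there were b libraries alone, and it shared no run with the undeleted line, so run and deletion cannot be told apart. No inter-D site reached the minimum for limma in these 3 comparisons, in which 82.8%, 56.5% and 71.4% of the sites tested over the region changed.

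The remaining tests found no other difference. The share of minus junctions averaged 2.54% ± 1.53 untreated and 1.62% ± 0.810 with IAA in the CTCFdegron line (n = 6 each, exact permutation p = 0.229), and 1.58% ± 1.88 in bone marrow (n = 6) against 1.92% ± 1.40 in the untreated parental line (n = 4, exact permutation p = 0.790). Of 32 share tests, 4 had an exact p under 0.05, and none had a Benjamini-Hochberg value under it.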

How the data were processed

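LAM-HTGTS junction lists of 98 full libraries were read as deposited: each line is 1 junction read with its prey position, strand and sequence, and the authors' values are these positions, not counts or normalised signals. Per the submitters' processing notes, Bowtie2 and mm9 were used. Per the labels' protocols, the locus was replaced by a 129 strain sequence, which gives the coordinates used here. Versions, filters and duplicate handling are not given in the sources used here. Positions of a and b libraries were shifted by 3 bases, in opposite directions, to meet those of bone marrow. The 12 off-target lists were not used. Members, sites lists and measures were chosen with earlier results of these data known.

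Shares were computed per library with Python 3.11.15, numpy 2.4.6 and pandas 2.3.3, a and b averaged, and compared by two-sided exact permutation tests with Benjamini-Hochberg adjustment. Sites, peaks of 20 bp half-width, were tested with limma 3.58.1 in R 4.3.3 (voom, log2 tallies with a pseudocount of 0.5, library total as scale, a mean of at least 10 junctions per replicate, adjusted p under 0.05 over all sites), after checks on simulated data. Sequence came from a consensus of the reads (at least 2 reads, 70% agreement) and was matched to mm9 with blastn 2.17.0. Named sites are the 6 with the highest mean share over groups and, per comparison, up to 3 with the largest called change without overlap; sites named beyond that were chosen after their values were seen. Replicate totals ran from 1263 to 231023 junctions. A share of 0 allows up to 3 junctions of the total, 0.0539% in Rad21degron cells with IAA and 0.000846% in bone marrow; such limits cover counting error only. Same-numbered replicates deviated together in the OsTIR1-only (r from 0.715 to 0.805) and CTCF-tag-only lines (0.394 to 0.854). In the parental line they did so only weakly (0.154 to 0.449), and 0 of 4 IAA replicates correlated best with their own number untreated. Pairs were used in these 3 lines. In the other comparisons same-numbered replicates did not deviate together, and paired or block values there are alternatives only. Alternatives were peak width, exclusion distance, a or b libraries alone, identical junctions counted once, site minimum, pseudocount, scaling, replicate block and leaving out each replicate. Added after seeing the data were bone marrow without marked duplicates, the pseudo-D share, a longer D match and the paired test of differences between lines.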

Additional observations from a re-analysis of the deposited data

Results flagged for a closer look

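In 130 groups of 4 or 6 replicates that were examined for the named sites and the share measures, 13 held a replicate far from its group, where chance gives about 1 in 20. Where all other replicates are at 0, any junction at all is flagged, so that rate does not hold there. In the IGCR1-deleted Rad21degron line, site 114674094 stood at 0.207% of junctions in untreated replicate 1 and at 1.05% in IAA replicate 1, with 0 in the other replicates. In untreated cells of that line, site 114713225 stood at 0.0899% in replicate 4 (others 0.0188% to 0.0296%) and site 114728805 at 0.0148% in replicate 1 (others 0). With IAA, site 114713225 stood at 0.0375% in replicate 1 (others 0). In untreated CTCFdegron cells, site 114732517 stood at 0.232% in replicate 1 (others 0.0434% to 0.0913%) and site 114674094 at 0.00174% in replicate 6 (others 0). In the OsTIR1-only line, site 114674094 stood at 0.00548% in untreated replicate 2 (others 0), and site 114727252 at 0.0295% in IAA replicate 4 (others 0.0101% to 0.0127%). Of the values set against 0, those at 114728805, at 114713225 with IAA, and at 114674094 in CTCFdegron and OsTIR1-only cells rest on 2, 1, 1 and 3 junctions, no more than the 3 that a count of 0 allows. The JH-side share was 25.7% in CTCFdegron IAA replicate 1 (others 33.4% to 36.04%) and 18.0% in CTCF-tag-only IAA replicate 1 (others 24.9% to 26.0%). In bone marrow, the inter-D share was 1.85% in replicate 5 (others 1.20% to 1.38%) and the minus share 5.30% in replicate 3 (others 0.359% to 1.73%).

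The effect of IAA on the pseudo-D share differed between lines. The CTCFdegron effect exceeded that of the CTCF-tag-only line by 22.4 percentage points, of the parental line by 20.5 and of the OsTIR1-only line by 20.9, by permutation of treatment within lines, freely or within the replicate numbers of the control line. These 3 tests share the CTCFdegron samples.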

How the results depend on the processing

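Of 1135 values under alternatives, 1065 were labelled unchanged. For shares and single sites this meant the same side of the threshold. A change of direction was labelled unchanged where neither value passed. Counts of called sites had to stay within 1.5 times. Same-numbered replicates did not deviate together in the bone marrow and CTCFdegron comparisons or between the untreated Rad21degron lines. Block values there are alternatives, not tests on matched samples. Under the replicate block (sign flips of pairs), results that no longer passed were the bone marrow difference in inter-D share, 0.871 points, of the D array, 1.50, and in pseudo-D share, 9.45 (exact p = 0.125 each, the smallest possible), the CTCFdegron difference of the D array, 0.260 (p = 0.0938), and in pseudo-D share, 15.4 (exact p = 0.0625), and the parental JH-side share, 6.92 (p = 0.125). The replicate block raised called inter-D sites from 0 to 2 in the OsTIR1-only and in the CTCF-tag-only line, and changed no other count of sites by over 1.5 times. The share of all sites called was not tallied under the block or any other alternative, so these counts cannot be set against it. With the block, site 114708573 reached the minimum between the untreated Rad21degron lines, at 1.002 (limma adjusted p = 0.0840). Leaving out bone marrow reads marked as duplicates kept the calls in inter-D share and of the D array. Counting identical junctions once took the CTCFdegron difference of the D array to 0.190 (exact p = 0.130). Leaving out 1 replicate gave 0.217 to 0.323 for it, 5.87 to 8.16 for the parental JH-side share, -3.65 to -2.31 for the bone marrow JH-side share (passing in 3 of 10) and 1 to 3 called parental sites. With a libraries only the parental JH-side share was 5.23. With b libraries only the CTCFdegron minus share was -1.50 (exact p = 0.0216), and with an exclusion distance of 500 bp the bone marrow JH-side share was -3.84 (exact p = 0.00476), both passing there. With no site minimum, called inter-D sites numbered 40 in the Rad21degron line, 15 in its IGCR1-deleted form, 7 between those untreated lines, 5 in CTCFdegron, 1 in parental and 13 in bone marrow. These counts have no share of all sites beside them, so they are not a result about inter-D sites in particular. With IAA the Rad21degron line held 11 inter-D junctions in all, fewer than its 40 called sites, so most of those tallies were 0 there. Median-of-ratios scaling gave 4 called inter-D sites in CTCFdegron, 0 in parental and 3 in bone marrow. The same scaling turned sites 114732517 (-1.83), 114713225 (-0.29), 114708573 (-1.15) and 114685205 (-1.75) in CTCFdegron and 114685205 (-1.40) in bone marrow. It took the median over all sites from 0.23 to -0.05 in parental and from 0.22 to -0.02 in CTCF-tag-only cells, from -1.30 to -0.31 in Rad21degron and from -0.37 to 0.04 between the untreated Rad21degron lines. A pseudocount of 2, or identical junctions once, left 0 parental sites. The causes of these shifts were not tested. Depth limits the Rad21degron lines with IAA, with 11 and 40 inter-D junctions.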
